A study of Mus musculus with 26 samples.

Results

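The 9 genes described here make, carry and break down retinoic acid (RA). The genes were followed in E14 mouse embryonic stem cells in a state with RA and a state without it. They were chosen by name from 21951 annotated protein-coding genes. Breakdown genes are Cyp26a1, Cyp26b1, Cyp26c1 and Dhrs3, carriers are Crabp1, Crabp2 and Stra6, and synthesis genes are Rdh10 and Aldh1a2. The cells are a line kept pluripotent by leukemia inhibitory factor (LIF). In the state called mESC+ they stayed in LIF, and in mESC− LIF was withdrawn and 1 µM RA was given for 4 h. The states thus differ in both LIF and RA, and the effects of these cannot be told apart here. The series holds 26 samples, namely 6 RNA-seq libraries (3 per state), 18 ChIP-seq libraries of histone modifications and inputs, and 2 ATAC-seq libraries (1 per state). E14 is a single line, and each state of the chromatin assays has 1 library per mark, so a difference between the states there has no replicate check and compares libraries.

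RA is formed from retinol in a pair of oxidation steps, the first to retinal (RDH10) and the second to RA (ALDH1A2). Inside the cell it is held by small binding proteins, and it acts in the nucleus on receptors that bind DNA as dimers at repeats of a short half-site. The CYP26 enzymes oxidise RA to inactive products, and DHRS3 lowers the supply by reducing retinal back to retinol. Cyp26a1 is a classical direct target of the RA receptors, with receptor sites in its promoter and further upstream, which makes it a feedback gene in embryonic tissue and in stem cells.

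Sites that fit this receptor geometry were searched for in open chromatin around the genes. ATAC-seq uses a transposase to mark open DNA, and the authors called peaks separately in each library. For each gene, all peaks and all differential enhancer regions, which the authors listed from histone marks as differing between the states, within 100 kb of the gene body were taken (GRCm38). A half-site was AGGTCA. The forms AGTTCA and GGGTCA were accepted as well, and so was GGTTCA. A site was a direct repeat of any 2 of these half-sites spaced by 1, 2 or 5 bases, on either strand and with no mismatch. The sequences below are the 6 repeats that lay inside a peak, printed 5′ to 3′ on the strand of the repeat, with the half-sites in capitals. They are shown because they are all of the repeats in peaks around the 9 genes, and every one lies at Cyp26a1 and its neighbour Cyp26c1 or at Dhrs3.

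Cyp26a1 upstream, chr19:37695909-37695925, plus strand: GGGTCAcaggcGGGTCA
Cyp26a1 promoter, chr19:37697776-37697792, minus strand: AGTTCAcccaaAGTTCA
Cyp26a1 downstream, chr19:37770304-37770320, minus strand: AGGTCAacgtcAGGTCA
Cyp26a1 far downstream, first, chr19:37789468-37789484, plus strand: GGGTCAggtaaAGTTCA
Cyp26a1 far downstream, second, chr19:37789694-37789707, plus strand: AGTTCAaaAGTTCA
Dhrs3 intron, chr4:144898375-144898391, plus strand: GGGTCAcagagAGGTCA

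Of these, 5 are spaced by 5 bases and 1, the second far downstream site, by 2 bases. A match describes the sequence only. Of all 163484 mESC+ peaks 0.678% held such a repeat, and of all 141465 mESC− peaks 1.06%. Around the 9 genes it was 2 of 233 mESC+ peaks (0.858%, exact interval 0.104 to 3.07). For mESC− peaks it was 5 of 223 (2.24%, 0.732 to 5.15). Both intervals include the share of the whole list. Of the 5 mESC− peaks, 1 lay at Dhrs3 and the others at Cyp26a1 and Cyp26c1. With 1 mismatch allowed, the shares were closer to those of the whole lists, at 6.44% beside 5.89% in mESC+ and 8.52% beside 6.90% in mESC−. Both mESC+ peaks with a repeat had counterparts in mESC−. Most repeats around the genes lay outside peaks. The windows of the 9 genes held 45 of them, of which 2 lay inside a mESC+ peak and 6 inside a mESC− peak. In the windows of Cyp26a1 and Cyp26c1, which overlap, all 4 repeats spaced by 5 bases lay inside a mESC− peak and 1 of them also inside a mESC+ peak. In the other 7 windows 1 of 9 repeats spaced by 5 bases lay in a peak, in both lists, which is the one at Dhrs3. Of the repeats spaced by 1 or 2 bases, 1 of 5 at Cyp26a1 and Cyp26c1 lay in a mESC− peak and 0 in a mESC+ peak. In the other 7 windows 0 of 27 lay in a peak of either list. The difference between spacings was not tested.

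The state of each gene in the RNA-seq data is known here only in part. The deposited table lists 2189 genes, 1984 of them protein-coding (9.04% of all), with the authors' mean of normalized counts over all 6 libraries. What made a gene enter the table is not given in the sources used here, and values per library and a level for genes without an entry are not analysed here. All 4 breakdown genes were listed, 1 of 3 carriers (Stra6) and 0 of 2 synthesis genes. Crabp1, Crabp2, Rdh10 and Aldh1a2 had no entry. Per kilobase of exon, the authors' mean was 676 normalized counts for Cyp26a1, above 84.4% of the listed protein-coding genes. It was 63.5 for Dhrs3, 23.2 for Cyp26c1, 14.6 for Stra6 and 10.2 for Cyp26b1. Cyp26a1 thus stood far above the other 4 on this scale, and the others lay low among the listed genes, at percentiles between 8.17 and 32.5. Without values per library, it cannot be said whether the order of those 4 exceeds their spread. Stra6 overlaps Ccdc33, and whether the counting used strand is not given in the sources used here.

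Open chromatin around the genes was then counted by role. A peak had a counterpart where a peak of the other list overlapped it. Of all mESC− peaks 14.1% had no mESC+ counterpart, and of all mESC+ peaks 26.1% had no mESC− counterpart, the mESC+ list being the longer. Around the breakdown genes, 25 of 76 mESC− peaks (32.9%, exact Clopper-Pearson 95% interval 22.5 to 44.6) had no mESC+ counterpart. Around the carriers it was 16 of 112 (14.3%, 8.39 to 22.2) and around the synthesis genes 4 of 35 (11.4%, 3.20 to 26.7). The share around the breakdown genes was above that of the whole list, and the intervals of the other roles include it. In the other direction, 14 of 66 mESC+ peaks around the breakdown genes (21.2%, 12.1 to 33.0), 21 of 119 around the carriers (17.6%, 11.3 to 25.7) and 16 of 48 around the synthesis genes (33.3%, 20.4 to 48.4) had no mESC− counterpart. Here the interval of the carriers lay below the 26.1% of the whole list, and those of the other roles include it. From mESC+ to mESC−, the number of peaks thus went from 66 to 76 around the breakdown genes, from 119 to 112 around the carriers and from 48 to 35 around the synthesis genes, while the whole list went from 163484 to 141465. Intervals cover counting error only, neighbouring peaks are not independent, and read depth is unknown for both libraries. Within 20 kb of the gene bodies the order of the roles turned, with 23.7% of 38 peaks around the breakdown genes and 30.8% of 26 around the carriers. The roles were compared after the counts had been seen, and the difference between them was not tested.

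**Figure D1:**
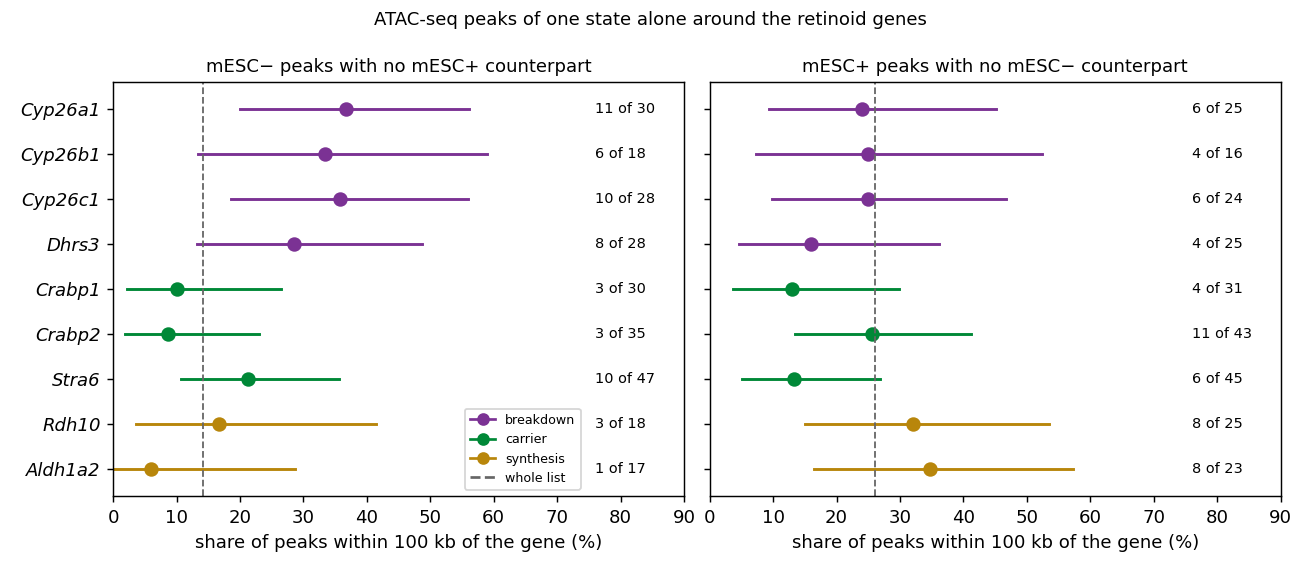
Share (%) of ATAC-seq peaks within 100 kb of each gene that have no overlapping peak in the other list, for mESC− peaks on the left and mESC+ peaks on the right. Points are shares, bars exact 95% intervals and dashed lines the shares of the whole lists (14.1% and 26.1%). On the left all 4 breakdown genes lie right of the line, between 28.6% and 36.7%, and Cyp26a1 and Cyp26c1 share most of their peaks. Stra6 (21.3%) and Rdh10 (16.7%) also lie right of the line.

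Each breakdown locus had a share above that of the whole list. It was 11 of 30 mESC− peaks at Cyp26a1 (36.7%), 10 of 28 at Cyp26c1 (35.7%), 6 of 18 at Cyp26b1 (33.3%) and 8 of 28 at Dhrs3 (28.6%). The shares at Stra6 (21.3%) and Rdh10 (16.7%) were also above that of the whole list. The intervals at Cyp26b1 (13.3 to 59.0) and Dhrs3 (13.2 to 48.7) include the 14.1% of the whole list, and those at Cyp26a1 (19.9 to 56.1) and Cyp26c1 (18.6 to 55.9) do not. Without the Cyp26a1 and Cyp26c1 locus the share around breakdown genes was 30.4%. Most of these peaks were weak. To compare strength across lists, each peak was ranked by fold enrichment within its own list as a percentile, with 100 for the strongest. Of the 25 breakdown peaks found in mESC− alone, 4 were above the median of the list, 1 at Cyp26a1 and 3 near Cyp26b1. Over the whole list it was 1247 of the 19885 peaks without a counterpart (6.27%). Their median percentile was 13.1, while that of all mESC− peaks without a counterpart was 18.9.

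Cyp26a1 encodes the enzyme that oxidises RA in the early embryo. It lies on chromosome 19 from 37697798 to 37701536 (plus strand), and Cyp26c1, its close relative, ends upstream of it. At its start, a mESC+ peak covered 37697878 to 37698235 with a fold enrichment of 5.27 (percentile 30.7). The mESC− peak covered 37697606 to 37698028 with a fold enrichment of 4.54 (percentile 14.5). By −log10 p instead, the percentiles were 46.2 and 51.4, so the order of the states depends on the measure. The position differed, since the left edge lay 272 bp and the right edge 207 bp further upstream in mESC−. The promoter repeat, centred 14 bp upstream of the start, was therefore inside the mESC− peak and outside the mESC+ peak. The same repeat is the only match among the 12 RefSeq promoter sequences found for 7 of the 9 genes (250 bases before to 50 after a start), while 0.588% of all 32851 promoters held one. A further mESC+ peak, 607 bp downstream of the start, had a fold enrichment of 4.66 (percentile 19.5) and no mESC− counterpart. The stretch of the mESC− peak before the gene start reads as follows on the plus strand, where the half-sites appear in capitals as TGAACT.

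Cyp26a1 promoter, chr19:37697606-37697797: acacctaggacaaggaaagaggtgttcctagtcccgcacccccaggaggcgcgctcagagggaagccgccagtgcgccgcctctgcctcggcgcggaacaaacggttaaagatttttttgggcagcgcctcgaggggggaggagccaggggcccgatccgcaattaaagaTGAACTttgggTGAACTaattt

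A further peak lay 1.88 kb upstream of the start in both lists, outside annotated genes, and holds the repeat of 2 GGGTCA half-sites. Its fold enrichment percentile was 59.0 in mESC+ and 53.2 in mESC−. By −log10 p the percentiles were 73.8 and 83.2, so the order of the states depends on the measure here too. The whole mESC− peak is shown on the plus strand with the half-sites in capitals.

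Cyp26a1 upstream peak, chr19:37695820-37696032: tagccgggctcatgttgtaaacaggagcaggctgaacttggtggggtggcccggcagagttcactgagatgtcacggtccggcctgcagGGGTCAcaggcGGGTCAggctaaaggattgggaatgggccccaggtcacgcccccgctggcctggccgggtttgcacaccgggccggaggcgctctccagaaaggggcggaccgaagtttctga

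Downstream of Cyp26a1, 2 mESC− peaks with repeats had no mESC+ counterpart. The nearer one, 72.5 kb from the start, had a fold enrichment of 5.33 (percentile 30.1). The farther one, 91.7 kb from the start (37789302 to 37789950), was 649 bp wide with a fold enrichment of 11.3 (percentile 85.2) and holds 2 repeats. Among the 19885 mESC− peaks without a counterpart it ranked 9 by fold enrichment, above 99.95% of them. It is intergenic, and these data do not tie it to a gene. The part between its repeats is shown on the plus strand, and it was chosen for printing after its values were seen, as was the Dhrs3 sequence further on.

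Cyp26a1 far downstream peak, part, chr19:37789463-37789712: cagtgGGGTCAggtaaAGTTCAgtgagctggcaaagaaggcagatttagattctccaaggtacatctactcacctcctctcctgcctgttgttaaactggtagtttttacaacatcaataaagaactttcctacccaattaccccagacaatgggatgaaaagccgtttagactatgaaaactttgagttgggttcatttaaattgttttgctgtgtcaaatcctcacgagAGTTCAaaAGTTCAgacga

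Peaks present in both states also differed in rank at this locus. In an intron of Exoc6, 26.1 kb upstream of the Cyp26a1 start, fold enrichment was 6.74 (percentile 51.7) in mESC+ and 12.0 (percentile 87.6) in mESC−. A peak 6.35 kb downstream of the start had 7.50 (percentile 59.7) in mESC+ and 4.29 (percentile 11.4) in mESC−. Shifts in both directions thus occurred, and of the 19 shared peaks at Cyp26a1, 5 ranked higher in mESC− by fold enrichment and 9 by −log10 p. No differential enhancer region lay near the gene, the closest one with the higher probability in mESC− being more than 10186 kb away.

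**Figure D2:**
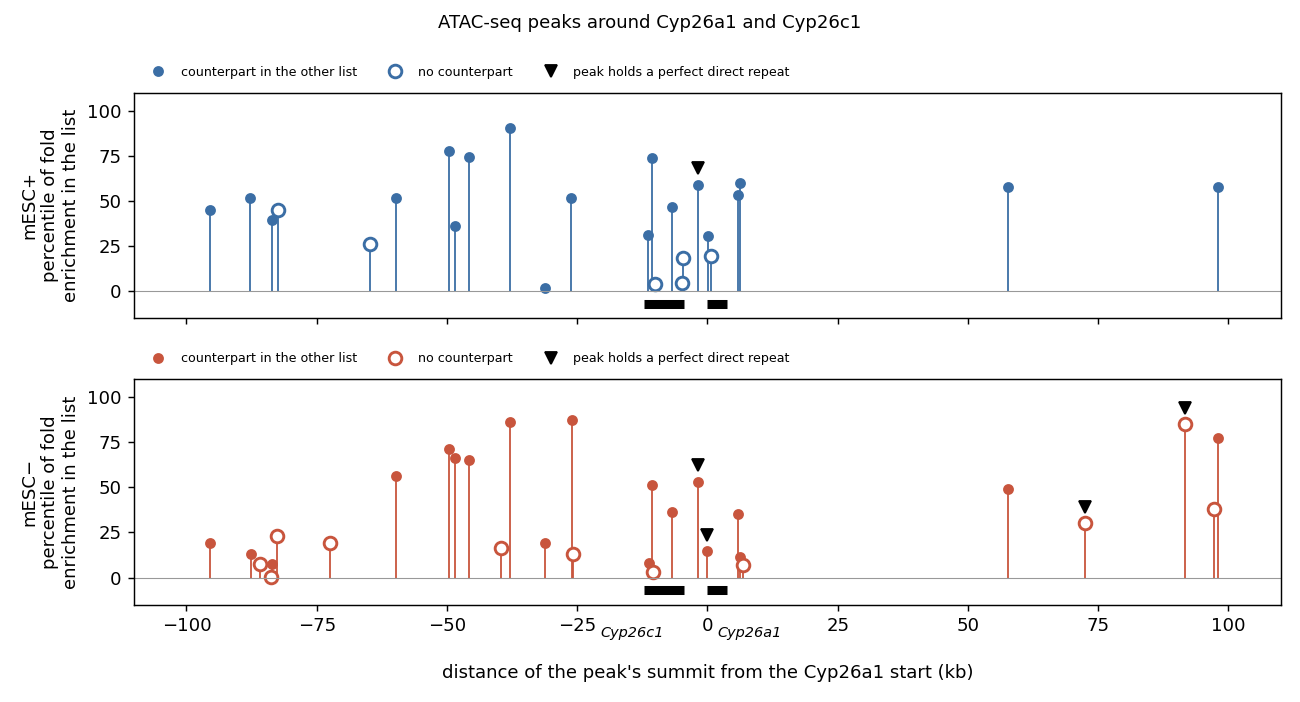
ATAC-seq peaks within 100 kb of Cyp26a1 in mESC+ (top) and mESC− (bottom), at the distance of the summit from the Cyp26a1 start (kb) and at the percentile of fold enrichment within the list. Filled points have a counterpart in the other list, open points have none, triangles mark peaks with a direct repeat and black bars the 2 genes. In mESC− 4 peaks carry a triangle against 1 in mESC+, and the open point at 91.7 kb reaches percentile 85.2.

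Cyp26c1 (chromosome 19, 37685581 to 37693398, plus strand) shares this landscape, and 28 mESC− and 24 mESC+ peaks lay within 100 kb of it. Neither list had a peak within 500 bp of its start. The closest summit lay 906 bp downstream of the start in mESC+, at percentile 31.2, and 966 bp downstream in mESC−, at percentile 7.92. Cyp26c1 itself was thus without an open promoter by this measure in both states, although it was listed in the RNA-seq table.

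Cyp26b1, which restricts RA in limb and hindbrain among other tissues, had no peak at its outer start in either list. It lies on chromosome 6 from 84571414 to 84593908 (minus strand). Over all annotated starts, a mESC+ peak was found at 2 of 5 and a mESC− peak at 0 of 5. Those mESC+ starts share the same weak peak, with a fold enrichment of 3.01 (percentile 0.511). The strongest peaks of mESC− alone lay upstream, in introns of the neighbouring gene Exoc6b. The strongest was 46.9 kb from the start with a fold enrichment of 10.6 (percentile 81.6), rank 30 among the mESC− peaks without a counterpart. A further pair lay 71.4 kb and 49.7 kb from the start, with fold enrichments of 7.70 (percentile 62.4) and 7.15 (percentile 57.8). None of these peaks held a direct repeat without mismatch, and the 7 such repeats in the window all lay outside peaks. With 1 mismatch allowed, the strongest peak held 3 repeats spaced by 5 bases. In both states the strongest peak lay 22.5 kb upstream, with a fold enrichment of 17.0 in mESC+ (percentile 96.9) and 12.4 in mESC− (percentile 88.6).

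Dhrs3 (chromosome 4, plus strand, start at 144892827) had open chromatin in both states and a differential enhancer region. CRUP, the authors' method, turns ChIP-seq of H3K4me1, H3K4me3 and H3K27ac into a probability between 0 and 1 that a region is an active enhancer. In an intron of Dhrs3, from 144898401 to 144899400, this probability was 0.0174 in mESC+ and 0.846 in mESC−. By its difference the region ranked 107 among the 141 listed regions with the higher value in mESC−. The ATAC-seq peak overlapping it was strong in both states, with a fold enrichment of 11.4 (percentile 83.4) in mESC+ and 11.2 (percentile 84.2) in mESC−. By −log10 p the percentiles were 87.5 and 96.2. Accessibility by fold enrichment thus differed little. The enhancer probability differed by 0.829, but the list holds only regions that the authors called as differing in it. The direct repeat of the intron, 5.56 kb from the start, lies inside this peak and just outside the called region, whose first base comes after it. A further repeat, spaced by 1 base, lies inside the region but in no peak. The peak is shown within its mESC+ bounds, which the mESC− bounds enclose.

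Dhrs3 intron peak, chr4:144898326-144898564: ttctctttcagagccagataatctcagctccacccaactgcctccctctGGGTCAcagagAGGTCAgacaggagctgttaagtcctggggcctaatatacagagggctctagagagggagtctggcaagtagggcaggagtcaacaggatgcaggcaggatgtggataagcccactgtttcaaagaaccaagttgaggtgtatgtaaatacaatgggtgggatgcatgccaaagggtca

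The promoter of Dhrs3 was open in both states, with a fold enrichment of 7.04 (percentile 54.9) in mESC+ and 5.84 (percentile 37.5) in mESC−. Elsewhere at the locus, the shared peak in an intron 24.4 kb from the start had 5.00 (percentile 23.5) in mESC+ and 8.82 (percentile 70.9) in mESC−. A shared peak 13.96 kb upstream had 6.18 (percentile 44.8) in mESC+ and 10.7 (percentile 82.1) in mESC−. These were the largest rank differences toward mESC− at Dhrs3, where 7 of 19 shared peaks ranked higher in mESC− by fold enrichment and 10 by −log10 p. The 8 peaks found in mESC− alone were all weak, none above percentile 33.8.

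**Figure D3:**
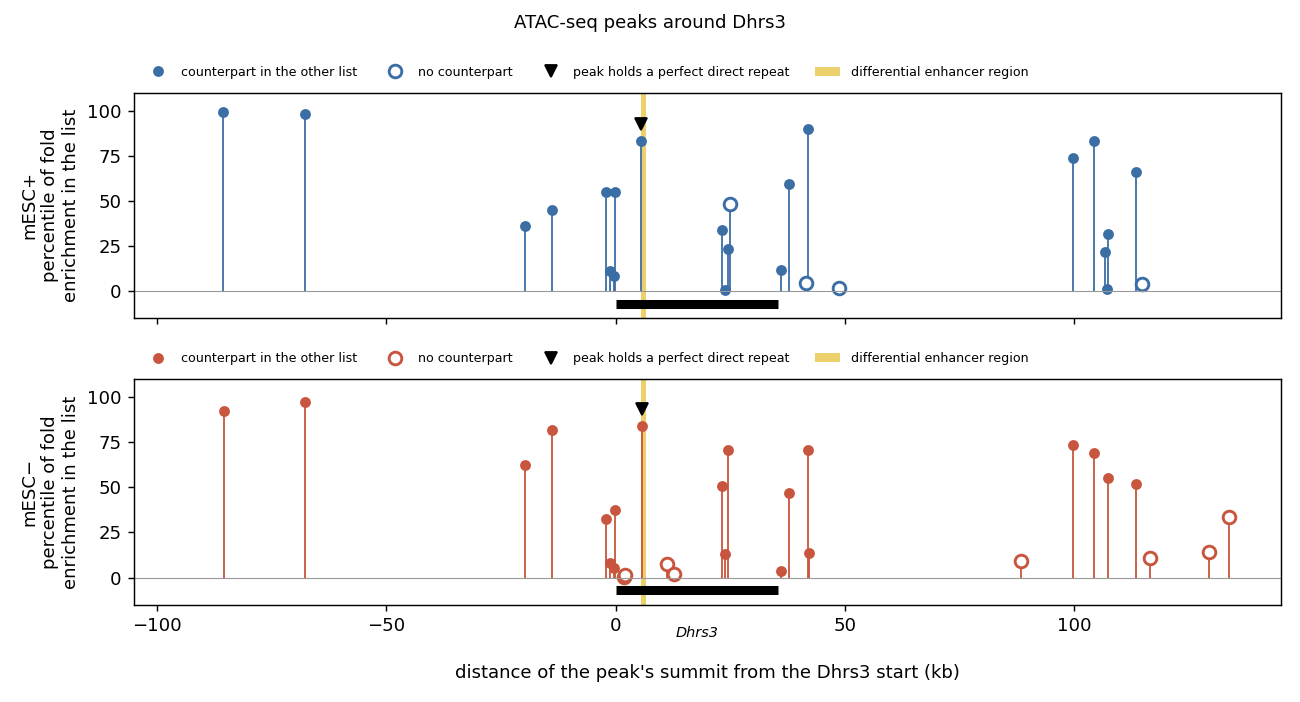
ATAC-seq peaks within 100 kb of Dhrs3 in mESC+ (top) and mESC− (bottom), plotted as distance of the summit from the start (kb) against the percentile of fold enrichment. The yellow band is the called enhancer, with a probability of 0.0174 in mESC+ and of 0.846 in mESC−, and the triangle marks its peak with a direct repeat, at percentile 83.4 and 84.2.

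Among the carriers, Stra6, the membrane receptor through which cells take up retinol, was the one listed gene and the one with a differential enhancer region in its window. The region lies on chromosome 9 from 58215401 to 58217600, 61.4 kb beyond the end of Stra6, and its probability was 0 in mESC+ and 0.872 in mESC−. It ranked 79 of 141 by this difference. Other genes are closer to it, since Pml ends 476 bp from it and Islr2 starts 11082 bp from it, and both are listed. The main ATAC-seq peak inside the region had a fold enrichment of 10.3 (percentile 78.5) in mESC+ and 8.09 (percentile 65.5) in mESC−, and no direct repeat was found in the region. The peak thus ranked lower in mESC−, where the enhancer probability was higher. A shared peak 146 kb from the Stra6 start, between the gene and the region, had 5.23 (percentile 30.3) in mESC+ and 10.2 (percentile 79.9) in mESC−.

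Around Stra6, 10 of 47 mESC− peaks had no mESC+ counterpart (21.3%, 10.7 to 35.7), and 7 of these lay inside the gene body, 4 of them also in introns of the overlapping gene Ccdc33. The strongest of them, in an intron, had a fold enrichment of 6.34 (percentile 46.0). Of the 12 annotated starts of Stra6, 3 had a peak in each list, and its outermost start had none.

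Crabp1, which holds RA in the cytoplasm, had an open start in both states, with a fold enrichment of 7.41 (percentile 59.2) in mESC+ and 6.05 (percentile 43.6) in mESC−. In its window 3 of 30 mESC− peaks (10.0%, 2.11 to 26.5) and 4 of 31 mESC+ peaks (12.9%, 3.63 to 29.8) had no counterpart. Crabp2, which delivers RA to its nuclear receptors, had a weak start peak in mESC+ (fold enrichment 3.97, percentile 8.15) and none in mESC−. Its window held 11 mESC+ peaks without counterpart of 43 (25.6%, 13.5 to 41.2) and 3 mESC− peaks of 35 (8.57%, 1.80 to 23.1). These intervals all include the shares of the whole lists (14.1% in mESC− and 26.1% in mESC+). A strong peak 12.3 kb downstream of its start was present in both states, with a fold enrichment of 20.7 (percentile 99.4) in mESC+ and 16.9 (percentile 97.8) in mESC−.

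Both synthesis genes had open starts in both states. At Rdh10, whose product makes retinal, fold enrichment at the start was 6.19 in each list (percentiles 46.5 and 44.8). The peaks differed in width, 299 bp in mESC+ and 847 bp in mESC−. They belong to a group of overlapping peaks that also lies at the start of Rpl7, so they cannot be assigned to Rdh10 alone. The group also holds a stronger mESC+ peak outside the start window, with a fold enrichment of 7.11 (percentile 55.3). The widths at the start thus do not compare the whole group. At Aldh1a2, whose product makes RA from retinal, fold enrichment at the start was 11.0 (percentile 81.8) in mESC+ and 7.77 (percentile 63.7) in mESC−. Their windows held fewer peaks in mESC− than in mESC+. At Rdh10, 8 of 25 mESC+ peaks (32.0%) had no mESC− counterpart, of which the strongest, 71.9 kb from the start, had a fold enrichment of 8.98 (percentile 70.9). Of its mESC− peaks, 3 of 18 (16.7%) had no mESC+ counterpart. At Aldh1a2, 8 of 23 mESC+ peaks (34.8%) and 1 of 17 mESC− peaks (5.88%) had no counterpart. The intervals of both mESC+ shares (14.9 to 53.5 and 16.4 to 57.3) include the 26.1% of the whole list. Of the shared peaks, 9 of 15 at Rdh10 and 6 of 14 at Aldh1a2 ranked higher in mESC−, by fold enrichment and also by −log10 p. The largest such difference was at a peak 37.5 kb upstream of Rdh10, with 6.74 (percentile 51.7) in mESC+ and 11.9 (percentile 87.1) in mESC−. No differential enhancer region lay within 100 kb of either gene.

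Over all 9 genes, 6 had a peak at the outer start in mESC+ and 5 in mESC−, beside 64.6% and 63.5% of all protein-coding genes. A differential region with the higher probability in mESC− lay within 100 kb of 2 genes (Dhrs3 and Stra6), beside 2.56% of all protein-coding genes, and one with the higher probability in mESC+ near 0 of 9, beside 2.11%. The list holds 327 such regions. Of the 174 peaks shared by both lists around the genes, 67 (38.5%, 31.2 to 46.2) ranked higher in mESC− by fold enrichment, close to the 40.7% of all shared peaks. Ranked by −log10 p, the share was 44.3% (36.7 to 52.0) beside 39.1%. Both intervals include the share of the whole list.

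**Figure D4:**
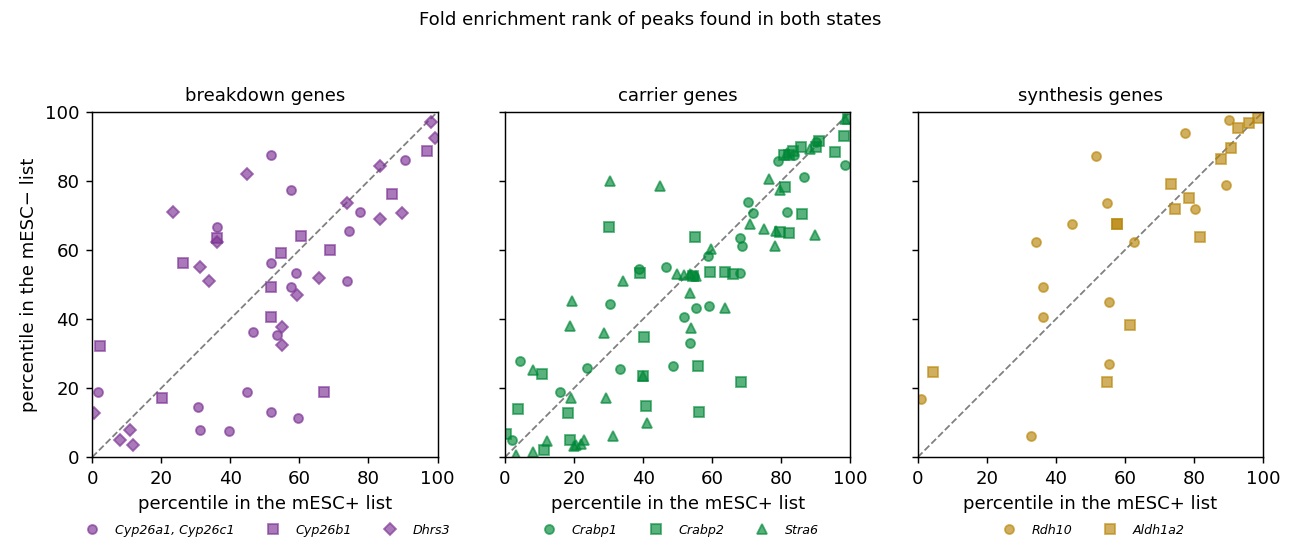
Percentile of fold enrichment in the mESC+ list (x axis) and in the mESC− list (y axis) for each peak found in both states within 100 kb of the breakdown, carrier and synthesis genes. Peaks on the dashed line have the same rank in both states, and 67 of 174 lie above it.

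Other genes of the pathway were counted from a list of 39 symbols, 35 of which are in the annotation. Lrat, Rdh13, Cyp2s1 and Stra8 were among those listed in the RNA-seq table. Start peaks were found in both lists at 19 and in neither list at 16, so no gene of the list had a start open in 1 state alone. Of all protein-coding genes, 64.6% had a start peak in mESC+ and 63.5% in mESC−. Stra8, a gene that RA switches on at the entry into meiosis, was the 1 gene with a differential region within 100 kb, with the higher probability in mESC−. That is 1 of 35 genes, close to the 2.56% of all protein-coding genes with such a region. Among the 6 receptor genes, Rara, Rarb, Rarg and Rxrg were listed, beside 9.04% of all protein-coding genes. A start peak was found in mESC+ alone at Rara and in mESC− alone at Rarg, and Rarg had 1 differential region with the higher probability in mESC−.

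The label of the cells was checked by the same measure. Of 10 embryonic stem cell markers, 8 had a start peak in both lists, and Fgf4 and Esrrb had none at the outer start. Start peaks in both lists were also found at 3 of 6 fibroblast markers, 2 of 5 primitive endoderm markers, 1 of 2 haematopoietic markers and 4 of 4 neural markers. An open start does not measure expression, so these counts do not separate the cell types. No marker start was open in 1 state alone.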

How the data were processed

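ATAC-seq reads were mapped by the authors to GRCm38 with BWA-MEM, duplicates were removed with SAMtools, and peaks were called with MACS2 in each library, with parameters not given in the sources used here. The deposited peak lists give a fold enrichment (a ratio to background) and −log10 p and q values. The deposited enhancer probabilities, fractions between 0 and 1, were computed by the authors with CRUP from 8 of the 18 ChIP-seq libraries, and the files used here hold nothing from the remaining 10. The deposited RNA-seq table from DESeq2 gives the mean of normalized counts, a signal the authors pooled over the 6 libraries. Its fold changes, standard errors, Wald scores and p-values, and the lowest p-value and cluster of each dynamic region, are the authors' own comparisons and were not used. No column gives values per library.

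Genes were matched by Ensembl identifier to GENCODE vM21, where 2188 of 2189 table entries have an annotated identifier. Peaks and regions within 100 kb of a gene body were taken, and peaks counted once where windows overlap. Peaks were counterparts from an overlap of 1 bp, starts were windows of 500 bp on each side of the gene's outer start, and percentiles are of the peak within its list. Intervals are exact Clopper-Pearson 95% intervals and cover counting error only, since depth is unknown. No test was run, as ATAC-seq and each ChIP-seq target have 1 library per state and the RNA-seq table no values per library. The direction of a region is that of its probabilities. Promoter sequences are RefSeq's (GRCm38.p6), and other sequences come from the same assembly. Named genes are the 9 members. Other pathway genes are named where listed, or where a start peak is in 1 list alone or a differential region lies within 100 kb. An item of that list is not reported here. Up to 3 peaks with a repeat upstream of a start were to be printed, and 2 qualified. A rule for genes most like Cyp26a1, by the number of differential regions, singled out none because Cyp26a1 has 0. Members and lists were chosen with earlier results of these data known. All 12 of 12 checks of the interval, overlap and repeat search functions passed on simulated data. The work was done in Python 3.11.15, with pysam 0.24.0 for sequences, pandas 2.3.3 and NumPy 2.4.6 for tables, SciPy 1.17.1 for intervals and matplotlib 3.10.9 for plots.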

Additional observations from a re-analysis of the deposited data

How the results depend on the processing

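Of 66 alternatives, 51 left a value within its interval or count range, 15 moved it and 0 reversed it. The share of mESC+ peaks without a mESC− counterpart around the 9 genes (21.9%) was 28.6% within 20 kb, 16.3% with peaks within 200 bp joined (whole list 22.8%), 8.82% among the top 50000 peaks (17.6%) and 14.4% with lists of equal length (20.1%). The share of mESC− peaks without a mESC+ counterpart (20.2%) stayed within its interval under every alternative run. The share of shared peaks ranking higher in mESC− was 25.6% at a −log10 q of at least 10 (whole list 37.5%) and 47.5% among the top 50000 peaks (52.9%). Start peaks among the top 50000 were found at 3 genes in mESC+ and 2 in mESC−, and at 3 in mESC− at a −log10 q of at least 10. Within 20 kb or 50 kb of the gene body, or 100 kb of the start, 1 gene kept a region with the higher probability in mESC−. With at most 1 mismatch, 6.44% of mESC+ and 8.52% of mESC− peaks around the genes held a repeat, beside 5.89% and 6.90% of all peaks. Alternatives by role were added after the data were seen. Around breakdown genes the share of mESC− peaks without counterpart was between 23.7% (within 20 kb) and 38.2% (lists of equal length). Within 20 kb the share around carriers moved from 14.3% to 30.8%, above that around breakdown genes. The cause of these moves was not tested. No paired analysis was possible because no RNA-seq value is given per library and each ATAC-seq or ChIP-seq target was profiled in a single library per state. Leaving out a replicate was not possible either.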

Other observations

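The 5 listed genes and the 4 without an entry were also set side by side, a grouping made after the values were seen. In the windows of the listed genes Cyp26a1, Cyp26c1, Cyp26b1, Dhrs3 and Stra6, 36.7%, 35.7%, 33.3%, 28.6% and 21.3% of mESC− peaks had no mESC+ counterpart. In the windows of the genes without an entry, Rdh10, Crabp1, Crabp2 and Aldh1a2, it was 16.7%, 10.0%, 8.57% and 5.88%. The point shares of both groups do not overlap, and the share of the whole list, 14.1%, lies between Rdh10 and Crabp1. Their exact intervals do overlap. The highest lower limit among the listed genes was 19.9 (Cyp26a1, 19.9 to 56.1). The lowest upper limit among the genes without an entry was 23.1 (Crabp2, 1.80 to 23.1). The shares of the latter rest on few peaks, 3 of 18 at Rdh10 (3.58 to 41.4) and 1 of 17 at Aldh1a2. The intervals thus do not separate the groups. The windows of Cyp26a1 and Cyp26c1 hold nearly the same peaks, and the difference was not tested.

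Direct repeats were not spread evenly over the kinds of peak in the whole lists. Of the 19885 mESC− peaks without a mESC+ counterpart, 438 held a repeat (2.20%, exact 95% interval 2.00 to 2.42), and of the 121580 mESC− peaks with a counterpart 1059 did (0.871%, 0.820 to 0.925). Of the 42631 mESC+ peaks without a mESC− counterpart, 90 held a repeat (0.211%, 0.170 to 0.259). The 2 peaks downstream of Cyp26a1 are among the 438.

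The strongest peaks found in mESC− alone near Cyp26b1 lie in introns of Exoc6b, and the shared peak upstream of Cyp26a1 with the higher rank in mESC− lies in an intron of Exoc6, a gene of the same family. Rdh10 had a second, weak peak at its start in mESC− alone, with a fold enrichment of 3.08 (percentile 0.444).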
